A study of Mus musculus with 27 samples.

Results

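The 9 transcription factors described here, Lhx2, Gata4, Gata6, Tcf21, Hand2, Foxf1, Wt1, Ets1 and Mef2c, were chosen by name, because they build or mark the hepatic stellate cell (HSC) lineage. They are 9 of 53379 genes in the count table, each found by its Ensembl ID, and all 9 passed the filter on low counts. HSCs, which store retinoid between hepatocytes and sinusoids, were taken from livers of male Balb/c mice, sorted on the ultraviolet fluorescence of their retinoid and lysed without culture, so cells that had lost this fluorescence were outside the gate. Liver injury was caused with CCl4 (carbon tetrachloride), a hepatocyte toxin, given intraperitoneally in mineral oil at 0.5 µL per g. The acute groups had 1 injection at an age of 10 to 12 weeks, with HSCs collected 24 h (n = 3), 72 h (n = 4) or 7 d (n = 4) later. The chronic groups had 8 injections in 4 weeks, with mice of 8 to 10 weeks at the start, and HSCs collected 24 h, 72 h or 14 d after the last (n = 4 each). Healthy mice of 10 to 12 weeks (n = 4) had no injection, and no group received oil alone, so oil and toxin cannot be told apart. By the methods of the study each repeat was an experiment of its own.

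HSCs arise from the mesenchyme of the septum transversum and from the mesothelium that covers the liver bud. Lhx2, a LIM homeodomain factor, is known for holding HSCs quiescent, and livers without it become fibrotic. Gata4 and Gata6 are zinc-finger factors of heart, gut and liver mesenchyme. Tcf21 and Hand2 are basic helix-loop-helix factors of organ mesenchyme, and Foxf1 is a forkhead factor that acts downstream of hedgehog signalling in visceral mesenchyme. Wt1, a zinc-finger factor, marks the mesothelium and its descendants, Ets1 belongs to the ETS family, and Mef2c is a MADS-box factor of muscle.

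Levels are in CPM, the counts a gene would have in a library of 1 M counts, with library sizes corrected by edgeR's TMM factors. A gene was called different when edgeR's quasi-likelihood test, fitted to 18758 genes over all 27 libraries, gave a Benjamini-Hochberg adjusted p below 0.05. Library totals ran from 6.31 M to 13.1 M counts and fell into 2 depth classes, with all 4 chronic 14 d libraries and replicates 1 and 2 of chronic 24 h and of chronic 72 h in the lower class. Summed CPM of 19 stellate cell markers was 39018 to 57266 in healthy libraries and 17449 to 20254 at chronic 24 h, where 15 of the 19 were lower than in healthy and 1, Pdgfrb, was higher, while 9 of 10 activation markers were higher. The stellate cell sum lay below the healthy range in the other injured groups too, from 18164 to 23743 at acute 72 h and from 25776 to 37648 at acute 24 h. The stellate cell markers Des, Lrat and Reln were above 0 in every library.

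In healthy HSCs 6 of the 9 factors ranked among the highest genes per length. Per kb of annotated exon, Tcf21 stood at 444 CPM ± 23 (SD, n = 4) and Foxf1 at 387 ± 25.6, above 99.5% and 99.4% of 18741 genes. Lhx2 followed at 137 ± 18.4 CPM per kb, Hand2 at 117 ± 16.9, Ets1 at 90.6 ± 18.9 and Gata4 at 86.6 ± 15.8, which placed the lowest of these 4 above 97.1% of genes. Gata6 was at 21.7 ± 7.31 CPM per kb. Mef2c, whose exon length of 15.7 kb adds up all annotated exons, was at 1.92 ± 0.437 CPM per kb, and Wt1 was last at 0.663 ± 0.281, above 21.7% of genes. Summed over the 9 factors, healthy libraries held 3822 to 4381 CPM and chronic 24 h libraries 2038 to 2318 CPM, without overlap. The sum was also below all healthy libraries at acute 24 h (2398 to 2634) and acute 72 h (2733 to 3439). The same held at acute 7 d (2528 to 3290) and chronic 14 d (3180 to 3483). Only chronic 72 h libraries (3125 to 3961) overlapped healthy.

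The stretches before the start of 4 of these genes are shown. At chronic 24 h Lhx2, Tcf21 and Hand2 were lower and Mef2c was higher. Foxf1, Wt1 and Ets1 were called there too and have no stretch shown. The stretches come from a table of RefSeq sequences on GRCm38.p6 and end where the first annotated exon begins. Windows were kept for 4 of the 9 members, a count that does not tell whether the table lacked the others. Lhx2 lies on the plus strand (chr2:38339031-38339280), Tcf21 on the minus strand (chr10:22820175-22820393), Hand2 on the plus strand (chr8:57320733-57320982) and Mef2c, at the first of its annotated starts, on the plus strand (chr13:83503784-83504033). Capitals mark matches to GATAA (GATA) or TAATTA (LIM homeobox) on either strand.
Lhx2: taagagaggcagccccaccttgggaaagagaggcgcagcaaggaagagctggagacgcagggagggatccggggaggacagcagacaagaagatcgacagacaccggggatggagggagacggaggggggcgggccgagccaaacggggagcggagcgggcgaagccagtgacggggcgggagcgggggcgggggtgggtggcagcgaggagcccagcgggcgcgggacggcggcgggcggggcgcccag
Tcf21: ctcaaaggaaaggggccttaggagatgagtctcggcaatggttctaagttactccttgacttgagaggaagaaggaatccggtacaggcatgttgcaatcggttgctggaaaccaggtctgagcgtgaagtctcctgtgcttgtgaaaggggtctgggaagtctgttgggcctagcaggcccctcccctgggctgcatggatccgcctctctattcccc
Hand2: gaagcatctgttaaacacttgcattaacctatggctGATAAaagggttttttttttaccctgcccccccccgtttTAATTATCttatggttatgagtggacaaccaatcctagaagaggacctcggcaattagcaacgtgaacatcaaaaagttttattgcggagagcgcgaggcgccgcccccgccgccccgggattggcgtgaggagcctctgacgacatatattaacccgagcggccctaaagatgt
Mef2c: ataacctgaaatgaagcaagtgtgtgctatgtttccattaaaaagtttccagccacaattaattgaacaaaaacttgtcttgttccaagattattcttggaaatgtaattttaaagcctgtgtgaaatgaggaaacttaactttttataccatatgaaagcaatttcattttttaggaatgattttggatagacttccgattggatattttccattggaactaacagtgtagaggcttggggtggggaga
Of the 4 stretches printed, that of Hand2 held matches. In Hand2 GATAA began 214 bases before the start, and TAATTA, 175 bases before it, overlapped a GATAA on the opposite strand. A stretch before another annotated start of Mef2c, not printed (chr13:83523553-83523655, plus strand), held TAATTA 102 bases before that start. Of 32851 windows of 250 bases before annotated starts, 22.6% held GATAA and 4.84% TAATTA on either strand. CAGCTG (E-box, 13% of windows), GTAAACA (forkhead, 3.17%), CCGGAAG (ETS, 6.91%) and TATTTATA (MEF2, 1.56%) were not in the stretches printed. The Lhx2 stretch was 72.8% G or C and that of Mef2c 33.6%, beside a median of 52.4% over all windows.

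**Figure D1:**
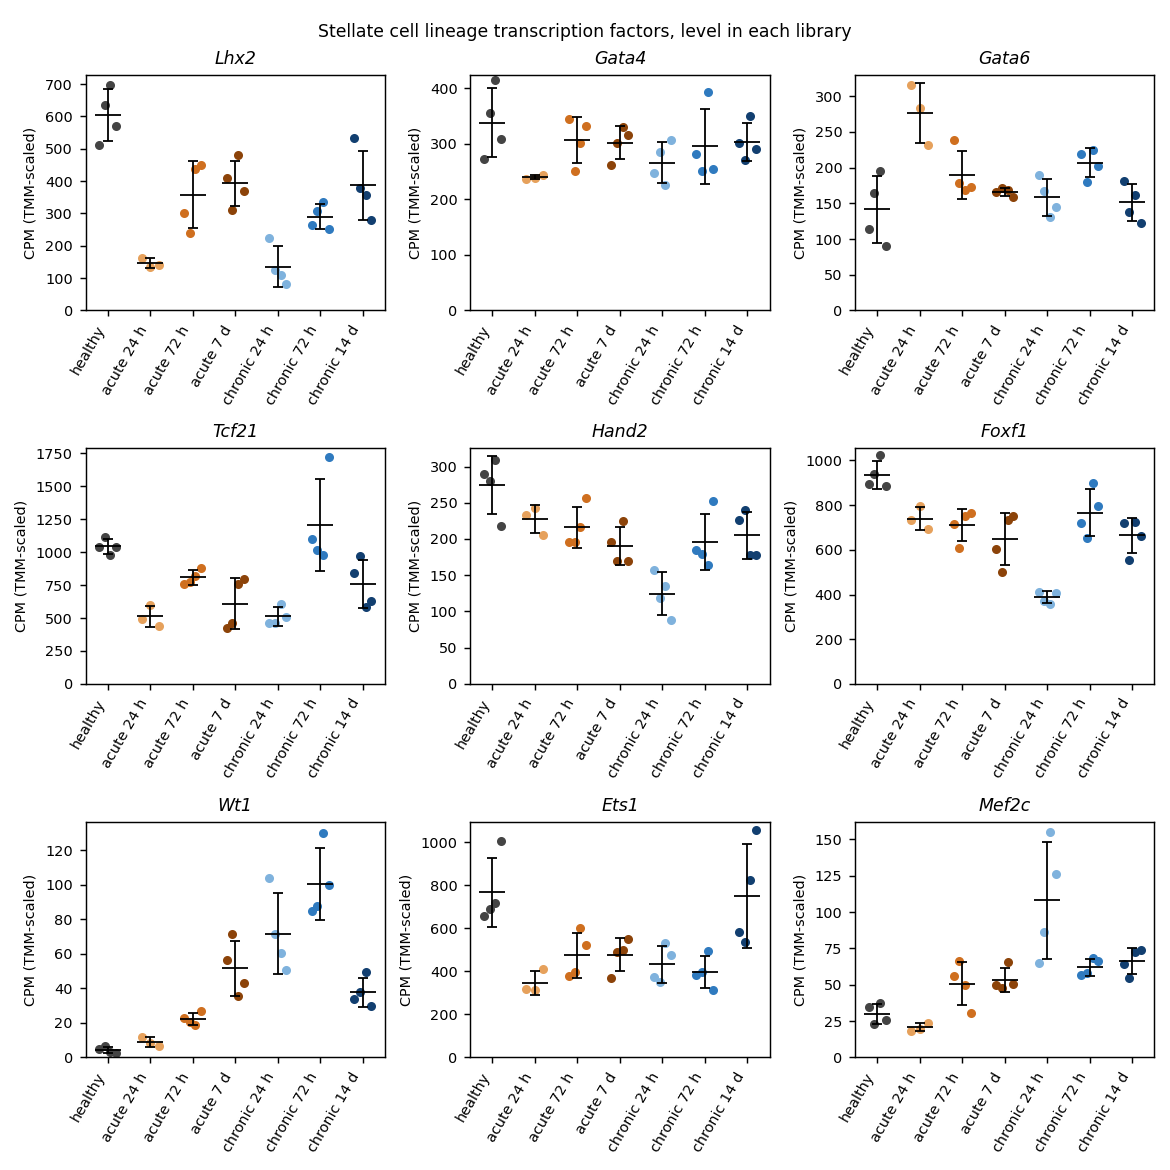
Level of each factor in each library (y axis, CPM on TMM-scaled library size, from 0; x axis, the 7 groups). Points are libraries and bars are the mean ± SD. Lhx2 was lowest 24 h after injury, Wt1 was above healthy in every injured group, and Foxf1 and Hand2 were lowest at chronic 24 h.

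Lhx2 was lower 24 h after injury, whether it was the first or the last of 8 injections, and less so at later times. It measured 511, 635, 698 and 571 CPM in healthy HSCs. After 1 injection Lhx2 was at 163, 133 and 140 CPM at 24 h, at 302, 239, 438 and 451 at 72 h, and at 411, 311, 480 and 369 at 7 d. In chronic injury it was at 225, 125, 108 and 81.9 CPM at 24 h, at 264, 306, 335 and 250.5 at 72 h, and at 532, 379, 356 and 279 at 14 d. Every library of the injured groups was below all healthy ones except replicate 1 of chronic 14 d. The level fell to 24.1% of the healthy mean at acute 24 h (log2 fold change -2.05 ± 0.29 SE, adjusted p = 9.91e-06) and to 22.4% at chronic 24 h (-2.16 ± 0.26, adjusted p = 1.32e-06). In bulk RNA, fewer cells of a type and less RNA per cell cannot be told apart. Lhx2 was also lower at acute 72 h (-0.76, adjusted p = 0.0342) and chronic 72 h (-1.06, adjusted p = 0.00437), and it missed the threshold at acute 7 d (-0.62, 95% interval -1.12 to -0.13, adjusted p = 0.0787) and chronic 14 d (-0.64, -1.14 to -0.15, adjusted p = 0.119). The acute 72 h call was lost without healthy replicate 2 or 3 or acute 72 h replicate 1 or 2 (adjusted p = 0.0705, 0.0907, 0.0829 and 0.117), and with scaling by library size alone (adjusted p = 0.0693). The acute 7 d difference passed with higher-depth libraries alone (-0.59, adjusted p = 0.0423) and in a fit of both groups alone (-0.64, adjusted p = 0.029). With higher-depth libraries alone the chronic 24 h value was -2.66 and the chronic 72 h value -1.01. With depth class as a term the chronic 14 d value was -1.06 (adjusted p = 0.0782). Depth class and group cannot be told apart in that comparison.

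Foxf1 and Hand2 were lowest at chronic 24 h. Foxf1 measured 897, 938, 1022 and 886 CPM in healthy HSCs and 411, 370, 359 and 408 at chronic 24 h. It was at 732, 796 and 692 CPM at acute 24 h, at 715, 607, 752 and 767 at acute 72 h, at 604, 503, 732 and 751 at acute 7 d, at 718, 653, 901 and 796 at chronic 72 h, and at 719, 553, 725 and 662 at chronic 14 d. The chronic 24 h libraries lay below every other library of the series. Foxf1 fell to 41.4% of the healthy mean there (-1.27 ± 0.14 SE, adjusted p = 2.70e-07) and was also lower at acute 7 d (-0.53, adjusted p = 0.00632), acute 72 h (-0.40, adjusted p = 0.0384) and chronic 14 d (-0.49, adjusted p = 0.0248). At acute 24 h (-0.34, adjusted p = 0.0815) and chronic 72 h (-0.29, adjusted p = 0.144) it missed the threshold. All acute 24 h libraries lay below the healthy ones, and the acute 24 h difference passed in DESeq2's own test (-0.36, adjusted p = 0.0228). The acute 72 h call was lost without healthy replicate 2 or 3 or acute 72 h replicate 1 or 2 (adjusted p = 0.0707, 0.103, 0.0613 and 0.12). It was also lost by library size alone (adjusted p = 0.122) and with no filter on low counts (adjusted p = 0.0698). The chronic 14 d call was lost without healthy replicate 2 or 3 or chronic 14 d replicate 2 or 4 (adjusted p = 0.0559, 0.0735, 0.123 and 0.0642). Depth class as a term (-0.35, adjusted p = 0.31) and library size alone (-0.31, adjusted p = 0.151) lost it too. So did no filter (adjusted p = 0.0636) and a fit of both groups alone (adjusted p = 0.1465).

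Hand2 measured 290, 280.5, 310 and 218 CPM in healthy HSCs and 157, 118, 135 and 87.8 at chronic 24 h. It stood at 233, 243 and 206 CPM at acute 24 h, at 196.5, 196, 216 and 256 at acute 72 h, at 196, 170.2, 225 and 170.1 at acute 7 d, at 185, 179, 165 and 252 at chronic 72 h, and at 226, 240.1, 178 and 177.5 at chronic 14 d. As for Foxf1, no other library was as low as the chronic 24 h ones. The level there was 45.4% of the healthy mean (-1.14 ± 0.18 SE, adjusted p = 2.47e-05). Hand2 was also called lower at acute 7 d (-0.53, adjusted p = 0.0289) and chronic 72 h (-0.49, adjusted p = 0.0474), with libraries that overlapped the healthy range. The acute 7 d call was lost without healthy replicate 1, 2 or 3 or acute 7 d replicate 1, 2 or 4 (adjusted p = 0.0551 to 0.0833), by library size alone (0.0604) and with no filter on low counts (0.0712). That of chronic 72 h was lost without healthy replicate 1, 2 or 3 or chronic 72 h replicate 1, 2 or 3 (adjusted p = 0.0917 to 0.159), with higher-depth libraries alone (-0.36, adjusted p = 0.283), by library size alone (0.112), with no filter (0.115), with depth class as a term (0.0658) and in a fit of both groups alone (0.112). In the order of the group means, Hand2 at acute 7 d and chronic 24 h differed (adjusted p = 0.0186) and no other neighbours did (adjusted p = 0.285 or more).

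Tcf21 was lower 24 h after both the first and the last injection and overlapped healthy at chronic 72 h. It measured 1041, 1113, 981 and 1036 CPM in healthy HSCs, 494, 598 and 443 at acute 24 h, and 465, 464, 610 and 508 at chronic 24 h. The acute 72 h libraries held 756, 776, 817 and 880 CPM of Tcf21, those of acute 7 d 424, 462, 755 and 794, those of chronic 72 h 1097, 1015, 980.3 and 1724, and those of chronic 14 d 840.2, 973, 586 and 628. All acute libraries and those of chronic 24 h and 14 d lay below the healthy ones, while chronic 72 h overlapped them. The fall was -1.03 ± 0.23 SE at acute 24 h (adjusted p = 0.00128), -1.03 ± 0.21 at chronic 24 h (adjusted p = 0.000603) and -0.78 ± 0.21 at acute 7 d (adjusted p = 0.00884). Tcf21 did not pass the test at acute 72 h (-0.37, adjusted p = 0.217), chronic 14 d (-0.46, adjusted p = 0.179) or chronic 72 h (0.21, 95% interval -0.20 to 0.61, adjusted p = 0.529). Replicate 4 of chronic 72 h stood apart, and without it that difference was -0.016.

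Ets1 was lower in 5 of the 6 injured groups, and at chronic 14 d its libraries overlapped the healthy ones. It ranged from 657 to 1005 CPM in healthy HSCs, from 313 to 411 at acute 24 h, from 315 to 494 at chronic 72 h and from 534 to 1057 at chronic 14 d. The lowest mean, at acute 24 h, was 45.2% of healthy (-1.15 ± 0.24 SE, adjusted p = 0.000713). Ets1 was lower by -0.95 at chronic 72 h (adjusted p = 0.00311), -0.83 at chronic 24 h (adjusted p = 0.00547), -0.69 at acute 72 h (adjusted p = 0.0244) and -0.68 at acute 7 d (adjusted p = 0.0246). At chronic 14 d the difference was -0.03 (95% interval -0.46 to 0.39, adjusted p = 0.955). The 72 h and 7 d calls after 1 injection were lost without healthy replicate 4 (adjusted p = 0.0887 and 0.0848), acute 72 h replicate 1 or 2 (adjusted p = 0.0726 and 0.0749) or acute 7 d replicate 1 (adjusted p = 0.0846), and by library size alone (adjusted p = 0.0591 and 0.0554). With higher-depth libraries alone the chronic 24 h value was -0.60 (adjusted p = 0.0889).

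The GATA pair moved apart at acute 24 h. Gata6 measured 114, 165, 196 and 90.7 CPM in healthy HSCs and 315, 284 and 232 at acute 24 h, all above the healthy libraries. Its fold change there was 0.97 ± 0.20 SE (adjusted p = 0.000704). At chronic 24 h Gata6 was at 190, 167, 131 and 145 CPM and did not pass the test (0.16, 95% interval -0.21 to 0.53, adjusted p = 0.554). It was called higher at chronic 72 h, with 219.7, 179.9, 225 and 203 CPM (0.55, adjusted p = 0.0441). This Gata6 call was lost without healthy replicate 1 or 4 or chronic 72 h replicate 1, 3 or 4 (adjusted p = 0.0734 to 0.132). Higher-depth libraries alone (0.63, adjusted p = 0.0826) and no filter on low counts (adjusted p = 0.0678) lost it too. So did depth class as a term (0.48, adjusted p = 0.112) and a fit of both groups alone (adjusted p = 0.164). Gata4 ranged from 272 to 415 CPM in healthy HSCs and was at 237, 239 and 243 at acute 24 h, which was lower (-0.50 ± 0.17 SE, adjusted p = 0.0274). That call was lost without healthy replicate 2 or 3 or any of the acute 24 h replicates (adjusted p = 0.0574 to 0.103), with no filter on low counts (adjusted p = 0.106) in a fit of both groups alone (adjusted p = 0.0761) and with higher-depth libraries alone (-0.45, adjusted p = 0.0663). In the other 5 injured groups Gata4 differed from healthy by -0.35 to -0.14 and was not called. Without healthy replicate 1 it passed at chronic 24 h (-0.44, adjusted p = 0.0491).

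Wt1 was higher than in healthy HSCs in all 6 injured groups. It measured 4.62, 6.34, 2.87 and 2.60 CPM in healthy HSCs, from 30 to 65 counts per library. After 1 injection Wt1 was at 12.1, 8.42 and 6.67 CPM at 24 h, at 22.9, 20.4, 18.7 and 27 at 72 h, and at 56.4, 71.8, 35.4 and 42.9 at 7 d. In chronic injury it was at 104, 71.7, 60.3 and 50.8 CPM at 24 h, at 84.9, 87.6, 130.2 and 99.7 at 72 h, and at 33.8, 37.8, 49.4 and 29.97 at 14 d. No injured library reached down into the healthy range, and in the order of group means chronic 14 d, acute 72 h, acute 24 h and healthy each differed from the next (adjusted p = 0.00342 to 0.0492). The log2 fold changes were 1.15 ± 0.31 SE at acute 24 h (adjusted p = 0.00565), 2.44 ± 0.30 at acute 72 h (adjusted p = 3.61e-06), 3.65 ± 0.31 at acute 7 d (adjusted p = 2.64e-08), 4.13 ± 0.31 at chronic 24 h (adjusted p = 1.68e-09), 4.62 ± 0.32 at chronic 72 h (adjusted p = 1.27e-09) and 3.20 ± 0.30 at chronic 14 d (adjusted p = 8.65e-07). The acute 24 h call was lost without acute 24 h replicate 1 (0.88, adjusted p = 0.057). With higher-depth libraries alone the chronic 24 h and 72 h values were 3.77 and 4.84, and with depth class as a term the chronic 14 d value was 3.08. Chronic 14 d and healthy share no depth class, so no value within a class was possible.

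Mesothelial cells also express Wt1. The 10 mesothelial markers summed to 1.45 to 17 CPM in healthy, 1.14 to 2.95 in acute 24 h, 1.01 to 5.76 in acute 72 h, 5.39 to 67.7 in acute 7 d, 6.67 to 29.1 in chronic 24 h, 21.2 to 41 in chronic 72 h and 17.7 to 80.1 in chronic 14 d libraries. Of the defining markers, Msln was at 0 in all acute 24 h and 72 h libraries and at most 3.16 CPM in any library, and Upk3b was at most 23.2 CPM. Of the 8 mesothelial markers tested, only Slpi was higher than in healthy at acute 72 h, 7 d and all 3 chronic times, and none was higher at acute 24 h. The 10 portal fibroblast markers summed to 169 to 272 CPM in healthy, 91.4 to 153 in acute 24 h, 287 to 794 in acute 72 h, 824 to 1118 in acute 7 d, 626 to 1073 in chronic 24 h, 1076 to 2074 in chronic 72 h and 364 to 697 in chronic 14 d libraries. At acute 24 h 3 of the 10 were lower than in healthy and none was higher, and at chronic 72 h 9 were higher. Their part in the Wt1 result was not tested.

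Mef2c was not higher at acute 24 h and was higher in the 5 other injured groups. It measured 34.8, 23.2, 37.2 and 25.6 CPM in healthy HSCs and 18.5, 19.8 and 23.8 at acute 24 h (-0.55 ± 0.25 SE, adjusted p = 0.104). The later acute libraries of Mef2c held 56, 66.5, 49.8 and 30.8 CPM at 72 h and 49.98, 47.9, 65.5 and 50.4 at 7 d. Chronic libraries held 65.1, 86.6, 155 and 126 CPM at 24 h, 56.5, 57.9, 68.2 and 66.2 at 72 h, and 64.1, 54.9, 72.4 and 74.2 at 14 d. Only acute 24 h and acute 72 h overlapped healthy. The fold change was 1.84 ± 0.24 SE at chronic 24 h (adjusted p = 2.88e-06), 1.14 at chronic 14 d (adjusted p = 0.00324), 1.04 at chronic 72 h (adjusted p = 0.00256), 0.82 at acute 7 d (adjusted p = 0.0122) and 0.75 at acute 72 h (adjusted p = 0.0229). The acute 72 h call was lost without healthy replicate 2 or 4 or acute 72 h replicate 1 or 2 (adjusted p = 0.0507 to 0.0929). It was also lost in a fit of both groups alone (adjusted p = 0.0839). That of acute 7 d was lost without healthy replicate 2 (adjusted p = 0.0502). In chronic 24 h the libraries of higher depth were replicates 3 and 4, and with higher-depth libraries alone the value was 2.23.

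B cells, macrophages and endothelial cells can also express Mef2c. The 10 B cell markers summed to 15.3 to 61.6 CPM in healthy, 3.95 to 5.34 in acute 24 h, 26.9 to 51.8 in acute 72 h, 131 to 308 in acute 7 d, 77.7 to 205 in chronic 24 h, 98.1 to 274 in chronic 72 h and 268 to 576 in chronic 14 d libraries. In the same order of groups the 12 macrophage markers summed to 154 to 621, 149 to 200, 154 to 501, 723 to 3059, 311 to 1635, 542 to 1869 and 219 to 1291 CPM. The 12 markers of sinusoidal endothelium summed to 190 to 591, 103 to 139, 59.6 to 185, 267 to 751, 82.1 to 260, 234 to 358 and 456 to 783 CPM. Vascular smooth muscle can express it too, and its 10 markers, of which Des, Acta2 and Tagln are also stellate or activation markers, summed to 1042 to 1244, 3109 to 3443, 1392 to 3094, 717 to 850, 1698 to 7065, 533 to 616 and 655 to 765 CPM. Both Mef2c and the smooth muscle sum had their highest group mean at chronic 24 h, where 8 of the 10 smooth muscle markers were higher than in healthy. At acute 24 h, where Mef2c had its lowest mean, the smooth muscle mean was 3296 CPM, beside 1161 in healthy. It was 766, 576 and 697 CPM at acute 7 d, chronic 72 h and chronic 14 d, where Mef2c was called higher. The part of these cell types in the Mef2c result was not tested.

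**Figure D2:**
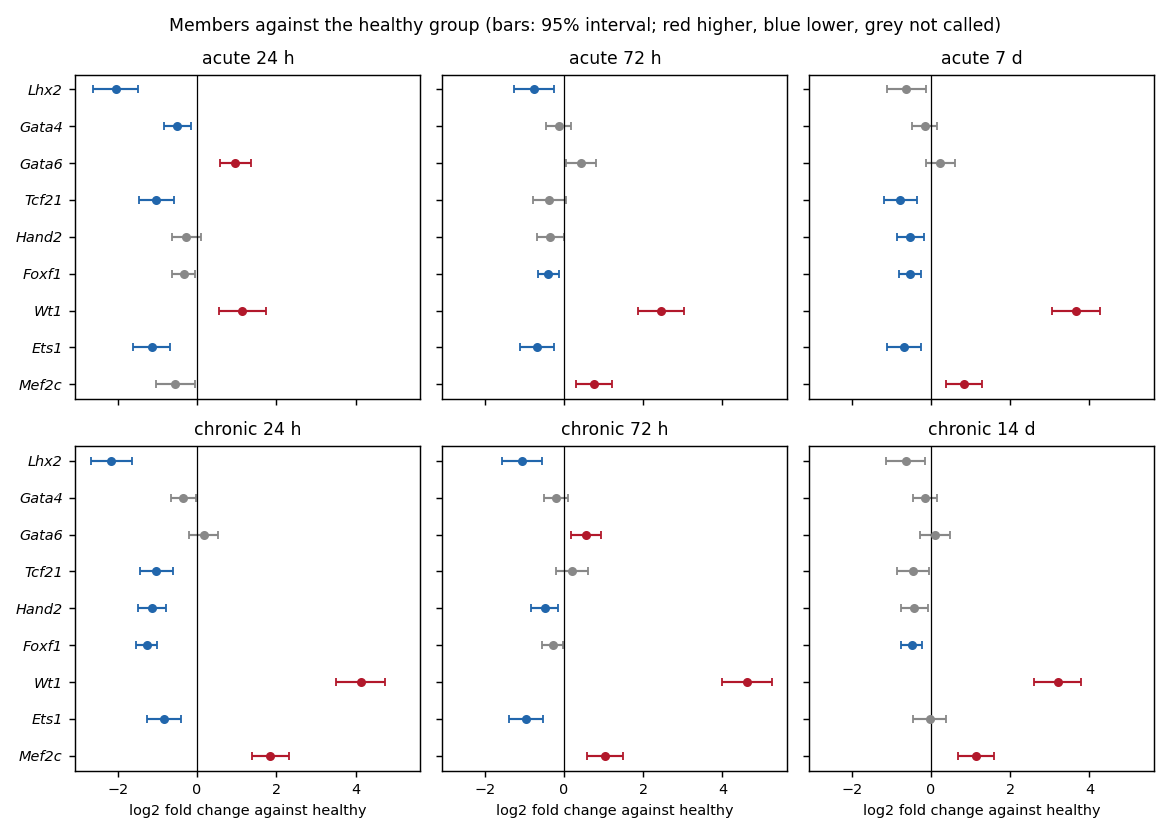
Log2 fold change against healthy (x axis) of the 9 factors (y axis) in each injured group, with 95% intervals. Red marks members called higher, blue members called lower and grey those that did not pass. Wt1 lies to the right in all 6 panels, and Lhx2 lies farthest to the left at acute 24 h and chronic 24 h.

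Counted over the group, 6 of 9 members were called at acute 24 h, 2 higher and 4 lower, beside 33.7% of all genes tested (15.5% higher, 18.1% lower). At acute 72 h 5 were called, 2 higher and 3 lower, beside 21.9% (13.1% and 8.81%), and at acute 7 d 6, 2 higher and 4 lower, beside 23.7% (13.1% and 10.6%). At chronic 24 h 7 were called, 2 higher and 5 lower, beside 31% (17.1% and 14%), at chronic 72 h 6, 3 each way, beside 20% (11% and 9%), and at chronic 14 d 3, with Wt1 and Mef2c higher and Foxf1 lower, beside 8.61% (5.12% and 3.49%). The median log2 fold change of the 9 was lowest at chronic 24 h, -0.83 beside -0.03 over all genes, and at acute 24 h it was -0.50 beside -0.12. These comparisons share the 4 healthy libraries. Over the 7 groups 8 of 9 members differed, all but Gata4 (adjusted p = 0.2), beside 56% of all genes. Scaled by library size alone, no member was called lower at acute 72 h. That scaling moved the median of all genes by up to 0.174 on the log2 scale in these comparisons, and it moved the share of higher genes among all called from 59.7% to 72.3% at acute 72 h, from 55.3% to 66.2% at acute 7 d, from 55% to 69.1% at chronic 72 h and from 59.4% to 83% at chronic 14 d.

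Within each course the members were compared between its first and last time. From acute 24 h to 7 d, 4 of 9 passed, beside 39.9% of all genes (22.6% higher, 17.4% lower). Lhx2 was 1.43 ± 0.28 SE higher on the log2 scale at 7 d (adjusted p = 0.000332), Wt1 2.51 ± 0.32 higher (adjusted p = 2.50e-06) and Mef2c 1.37 ± 0.26 higher (adjusted p = 0.000222), whereas Gata6 was 0.74 lower (log2 fold change -0.74, adjusted p = 0.00581). From chronic 24 h to 14 d, 6 of 9 passed, beside 23% (10.1% higher, 12.9% lower). Lhx2 was higher at 14 d by 1.52 ± 0.26 SE (adjusted p = 0.000167), Ets1 by 0.79 (adjusted p = 0.0106), Foxf1 by 0.78 (adjusted p = 0.000227) and Hand2 by 0.72 (adjusted p = 0.00417). Wt1 (-0.92, adjusted p = 0.0169) and Mef2c (-0.71, adjusted p = 0.0295) were lower at 14 d and still above healthy. Tcf21 missed the threshold (0.57, adjusted p = 0.0524) and passed when replicate 3 of chronic 24 h or replicate 3 or 4 of chronic 14 d was left out (adjusted p = 0.0223 to 0.0462). It also passed with DESeq2's size factors (adjusted p = 0.0276), library size alone (0.00705), a mean of at least 1 CPM (0.0378), depth class as a term (0.0304), the groups compared alone (0.0426) and DESeq2 (0.0132). The Wt1 difference lost its call when replicate 1 of chronic 24 h or replicate 4 of chronic 14 d was left out (adjusted p = 0.0728 and 0.0729). It also lost it by library size alone (adjusted p = 0.0573). The Mef2c call was lost without chronic 24 h replicate 3 or 4 or any of the chronic 14 d replicates (adjusted p = 0.0544 to 0.155). Depth class as a term (-0.37, adjusted p = 0.31) and library size alone (adjusted p = 0.0956) lost it too. So did no filter on low counts (adjusted p = 0.0669) and the groups compared alone (adjusted p = 0.1305).

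**Figure D3:**
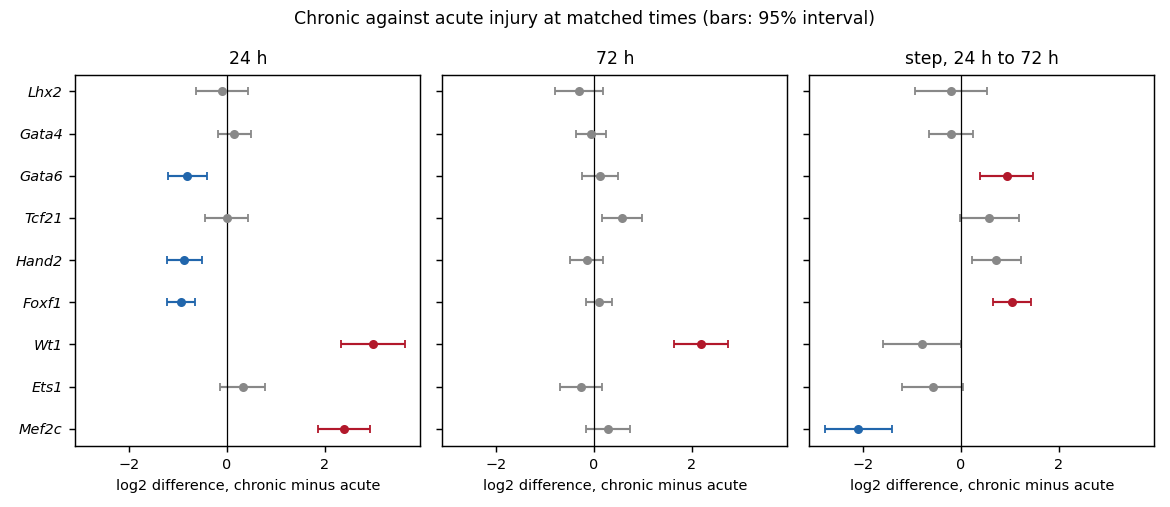
Log2 difference between chronic and acute injury (x axis) of the 9 factors (y axis) at 24 h and at 72 h, and the chronic step from 24 h to 72 h minus the acute step, with 95% intervals. Red and blue mark members called higher and lower. Wt1 and Mef2c lie to the right and Gata6, Hand2 and Foxf1 to the left at 24 h, and only Wt1 passed at 72 h.

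At matched times, HSCs after the last of 8 injections differed from those after a single injection in more members at 24 h than at 72 h. At 24 h 5 of 9 members passed, beside 21.3% of all genes (14% higher, 7.32% lower). Wt1 (2.98 ± 0.33 SE, adjusted p = 1.09e-06) and Mef2c (2.39 ± 0.27, adjusted p = 1.39e-06) were higher in chronic injury, and Foxf1 (-0.94 ± 0.15, adjusted p = 6.80e-05), Hand2 (-0.87 ± 0.19, adjusted p = 0.0016) and Gata6 (-0.81 ± 0.20, adjusted p = 0.00595) were lower. For Lhx2 the difference was -0.11 (95% interval -0.64 to 0.43) and for Tcf21 -0.00099 (-0.44 to 0.44), and neither passed. At 72 h 1 member passed, Wt1 (2.18 ± 0.28, adjusted p = 1.52e-05), beside 14.9% (7.12% higher, 7.8% lower). Tcf21 missed the threshold there (0.58, adjusted p = 0.0637). It passed without chronic 72 h replicate 2 or 3 (adjusted p = 0.0483 and 0.0343), with the size factors of DESeq2 (adjusted p = 0.0434) and by library size alone (adjusted p = 0.0391). It also passed with depth class as a term (adjusted p = 0.0413) and in DESeq2's own test (adjusted p = 0.0211). Without chronic 72 h replicate 4, which stood apart, the Tcf21 difference was 0.35 (adjusted p = 0.256). Mice of the chronic groups also differed in age, being younger when injections began and then treated for 4 weeks, which cannot be told apart from the number of injections.

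The step from 24 h to 72 h differed between the courses in 3 of 9 members, beside 10.8% of all genes (3.2% higher, 7.64% lower). Foxf1 was higher in chronic injury by this measure, with a difference of 1.05 ± 0.20 SE (adjusted p = 0.00136), as its mean went from 387 to 767 CPM in chronic and from 740 to 710 CPM in acute injury. Gata6 differed by 0.93 ± 0.28 (adjusted p = 0.0325), with means of 158 and 207 CPM in chronic and 277 and 190 in acute injury. Mef2c differed by -2.09 ± 0.35 (adjusted p = 0.000379), going from 108 to 62.2 CPM in chronic and from 20.7 to 50.8 in acute injury. The Gata6 difference lost its call without acute 24 h replicate 1 or 2, chronic 24 h replicate 3 or chronic 72 h replicate 1 (adjusted p = 0.0565 to 0.0955). Hand2 missed the threshold (0.72, adjusted p = 0.0696) and passed without acute 72 h replicate 4, chronic 24 h replicate 1 or chronic 72 h replicate 2 or 3 (adjusted p = 0.0249 to 0.0446) and with higher-depth libraries alone (1.06, adjusted p = 0.0493).

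**Figure D4:**
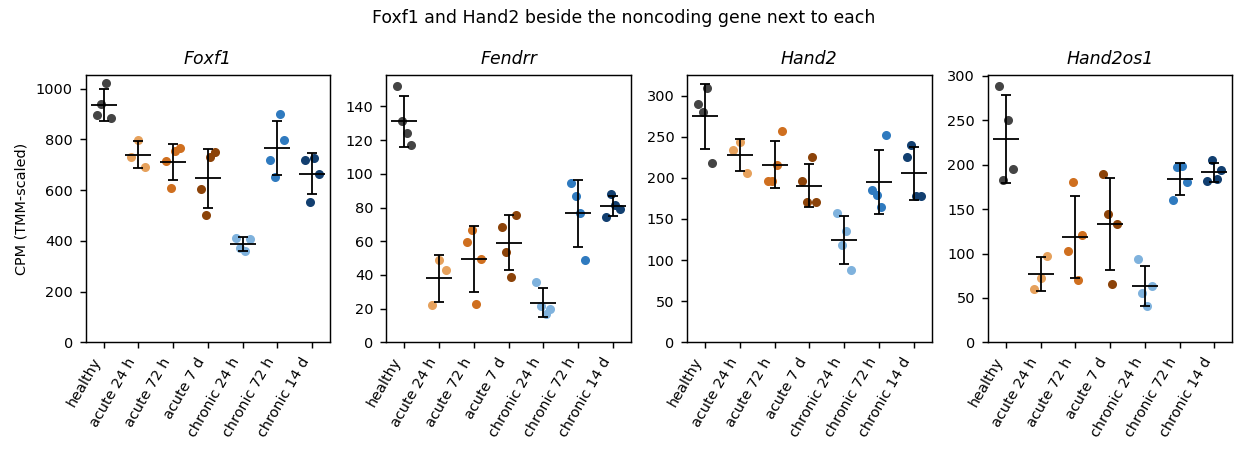
Foxf1 and Hand2 beside the noncoding genes Fendrr and Hand2os1 that lie next to them (y axes, CPM on TMM-scaled library size, from 0; x axes, the 7 groups; points are libraries, bars mean ± SD). At acute 24 h Fendrr and Hand2os1 lie well below healthy. Foxf1 and Hand2 do not pass the test there, though the Foxf1 libraries lie below every healthy one, and those of Hand2 overlap healthy.

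Some of these genes have a noncoding gene beside them, and those of Foxf1, Hand2 and Wt1 were on the list of neighbours. Fendrr starts 1275 bp from Foxf1 on the opposite strand. It measured 152, 131, 124 and 117 CPM in healthy HSCs, 22.3, 48.8 and 42.9 at acute 24 h and 35.8, 21.7, 16.8 and 20.1 at chronic 24 h, without overlap. Fendrr was lower at acute 24 h (-1.78, adjusted p = 0.000218), acute 72 h (-1.40, adjusted p = 0.00138), acute 7 d (-1.15, adjusted p = 0.00635) and chronic 24 h (-2.48, adjusted p = 1.82e-06). Hand2os1 shares 3251 bp with Hand2 on the opposite strand, so its reads and those of Hand2 may be mixed, as the strand of counting is not stated. It measured 289, 183, 250 and 195 CPM in healthy HSCs, 59.9, 72.6 and 97.4 at acute 24 h, and 94.1, 55.5, 41 and 63 at chronic 24 h. Hand2os1 was lower at both times (-1.58, adjusted p = 0.00048, and -1.85, adjusted p = 3.21e-05) and also at acute 72 h and 7 d. Whether these genes fell more than Foxf1 and Hand2 was not tested. Wt1os, 18 bp from Wt1, was at or below 2.65 CPM in every library. It was called higher at acute 7 d (adjusted p = 0.0054) and all 3 chronic times. Some healthy libraries were at 0 and its healthy mean was 0.0211 CPM, so its fold changes rest on very few healthy counts. A search within 5 kb, chosen after these values had been seen, added Gm10824 over Tcf21. Gm10824 was lower at acute 24 h (-2.20, adjusted p = 0.000263) and not called in the other injured groups. It shares 2894 bp with Tcf21 on the opposite strand, so their reads may be mixed too. Other tested genes found were 1010001N08Rik at Gata6, lower at acute 72 h only (-0.70, adjusted p = 0.0498), and Gm27197 over Lhx2 and Mthfsd near Foxf1, neither called against healthy.

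**Figure D5:**
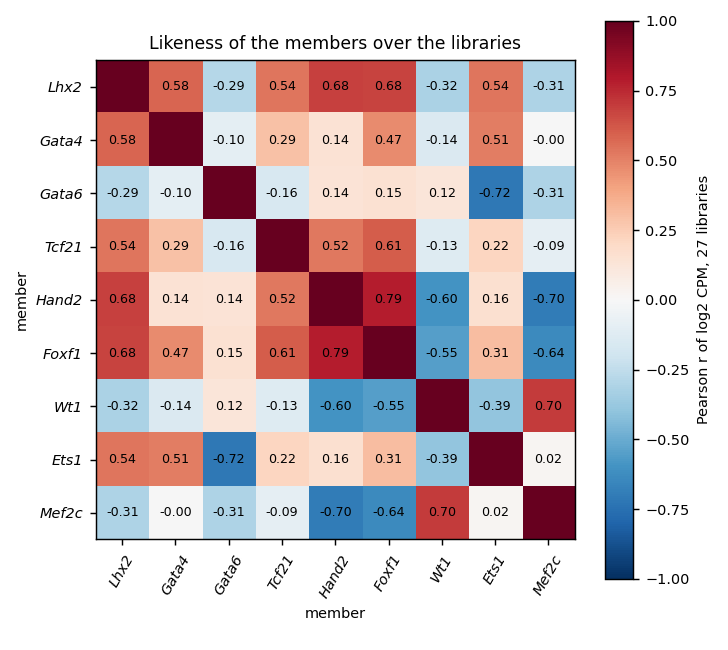
Pearson correlation of log2 CPM between each pair of the 9 factors over 27 libraries (both axes list the factors, colour gives r from -1 to 1). Hand2 and Foxf1 share the highest value, 0.79, and Gata6 and Ets1 the lowest, -0.72.

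Likeness between members is given as a description over 27 libraries, which share their group's treatment. Hand2 and Foxf1 had the highest Pearson r (0.786, Spearman rho 0.694), followed by Wt1 and Mef2c (0.701, rho 0.647). Gata6 and Ets1 (-0.716, rho -0.644) and Hand2 and Mef2c (-0.701, rho -0.683) ran in opposite directions. Among 12220 other genes whose log2 CPM averaged 2 or more, Wt1 was most like Dkk3 (r = 0.953) and Scube1 (r = 0.953). Dkk3 rose from a mean of 85.2 CPM in healthy to 690 at chronic 72 h. Ets1 was most like Hspa12a (r = 0.927) and Acvr2a (r = 0.925), a receptor for activin, and Lhx2 was most like Ephx1 (r = 0.914), an epoxide hydrolase, and Nr1h5 (r = 0.902). The closest genes were Fam198b (r = 0.87) and Lgi2 (r = 0.854) for Mef2c, Rtf1 (r = 0.847) and Gm43592 (r = 0.833) for Hand2, Art3 (r = 0.826) and Slc4a8 (r = 0.814) for Foxf1, Thra (r = 0.797) and Gsta4 (r = 0.782) for Tcf21, Bcor (r = 0.796) and Adra2b (r = 0.771) for Gata4, and Srpk1 (r = 0.778) and Rpusd1 (r = 0.772) for Gata6. Over the 7 group means the top 2 were other genes for every member, such as Gm48840 and Ikbke for Wt1, Pgm2l1 and Suox for Lhx2, and Gcnt4 and Zfp644 for Ets1.

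Of 34 relatives of the same families, 22 were tested, with 6 higher and 5 lower at acute 24 h, beside 33.7% of all genes called, and 4 higher and 3 lower at chronic 24 h, beside 31%. The forkhead genes Foxl1 and Foxc2 were higher in all 6 injured groups. Foxc2 measured 3.26, 3.51, 5.06 and 1.30 CPM in healthy HSCs and 27.7, 41.3, 32.6 and 36.6 at chronic 24 h (3.39, adjusted p = 7.84e-08). Foxl1 was at most 0.433 CPM in healthy and between 8.54 and 14 CPM at chronic 72 h (adjusted p = 1.54e-05). A healthy library was at 0, so the Foxl1 fold change rests on very few healthy counts. Etv1, an ETS factor, was at 67.4, 64.7, 68.1 and 52.5 CPM in healthy and at 6.23, 6.42 and 9.66 at acute 24 h (-3.08, adjusted p = 1.56e-06), and it was lower in every injured group except chronic 14 d. Gata5 was lower at acute 24 h (-1.94, adjusted p = 0.00372) and at all 3 chronic times. Of the other MEF2 genes tested, Mef2d was higher at acute 24 h (0.80, adjusted p = 0.00112) and Mef2a passed no comparison with healthy (-0.37 to 0.02).

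Of 22 partners and cofactors, 20 were tested, with 5 higher and 4 lower at both acute 24 h and chronic 24 h, beside 33.7% and 31% of all genes called. Ldb2 and Ldb1 encode adaptors that bind LIM domains, such as that of Lhx2. Ldb2 measured 75, 60.1, 57.8 and 75.7 CPM in healthy HSCs, 15, 14.9 and 12.6 at acute 24 h, and 11.8, 9.61, 11.6 and 10.5 at chronic 24 h. It was lower in all injured groups but chronic 14 d, by -2.25 at acute 24 h (adjusted p = 1.00e-07) and -2.62 at chronic 24 h (adjusted p = 1.83e-09). Ldb1 was lower at both of those times as well (-0.77, adjusted p = 0.0165, and -1.23, adjusted p = 0.000196). Tcf4, an E protein that pairs with Tcf21 and Hand2, was lower at acute 24 h (-0.92, adjusted p = 0.00137) and chronic 24 h (-0.85, adjusted p = 0.00135), while Id2, which blocks E proteins, was higher in all 6 injured groups (0.89 to 1.60). Id1 and Id3 were higher at acute 24 h (2.49 and 1.30). Zfpm2, a cofactor of GATA factors, was lower at acute 24 h (-0.67, adjusted p = 0.00642) and higher at chronic 24 h (0.55, adjusted p = 0.0152). Basp1, a corepressor of Wt1, was higher at both of those times (1.22 and 1.28), and Hdac4, which represses MEF2 factors, was lower at chronic 24 h (-0.70, adjusted p = 0.031).

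Among 40 other transcription factors of HSCs and liver mesenchyme, 36 were tested, with 5 higher and 11 lower at acute 24 h, beside 15.5% and 18.1% of all genes, and 9 higher and 10 lower at chronic 24 h, beside 17.1% and 14%. Runx1, Runx2 and Prrx2 were higher in all 6 injured groups. Runx1 measured 1.09, 0.293, 1.69 and 2.95 CPM in healthy HSCs and 17.2, 15.6, 27.7 and 36.6 at chronic 24 h (4.00, adjusted p = 1.04e-06). Prrx1 rose at every time but acute 24 h, by 3.75 at chronic 24 h, and Prrx2 had no count in any healthy library. Nr1h4, the bile acid receptor, was lower at acute 24 h (-0.88, adjusted p = 0.0462) and chronic 24 h (-1.39, adjusted p = 0.00137). Sox4 (-2.46) and Zeb2 (-2.13) were the lowest of the list at acute 24 h. Irf1 was lower at both times too (-2.02, adjusted p = 1.52e-05, and -1.61, adjusted p = 5.41e-05), and Vdr, the vitamin D receptor, was at 0 to 0.363 CPM in healthy and 3.71 to 9.82 at chronic 24 h (adjusted p = 8.20e-05).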

How the data were processed

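RNA of sorted HSCs from 27 libraries in 7 groups was sequenced as single 75-base reads. Before deposit the authors ran FastQC for read quality, STAR for alignment (genome GRCm38) and StringTie. They deposited a table of whole-number counts per Ensembl gene, and tool versions, annotation release and strand setting are not given in the sources used here. Of 53379 genes, 16198 had no count. Library sizes were scaled by TMM, genes were filtered by group with filterByExpr, and 18758 genes were fitted with 1 mean per group in edgeR 4.0.16 (quasi-likelihood, robust, R 4.3.3), with Benjamini-Hochberg adjustment over all of them. Each SE is the absolute log2 fold change divided by the square root of the F statistic of the quasi-likelihood test. CPM in the text are on TMM-scaled sizes. Correlations used log2 CPM with a prior count of 2.

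The 9 members and all gene lists were chosen with earlier results of these data known. The text names every member, tested genes of the relative, partner and noncoding neighbour lists, the 3 highest and 3 lowest called genes of other lists at 24 h, their defining markers, and the 2 genes most like each member. A gene named outside these is said to be chosen after its values were seen.

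Alternatives were DESeq2 1.42.0 and its size factors, library size alone, other filters and thresholds, a replicate block, depth class as a term, the compared groups alone, each library left out, and, chosen after the totals were seen, higher-depth libraries (over 9 M counts) alone. The fit was tested on simulated data.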

Additional observations from a re-analysis of the deposited data

Results flagged for a closer look

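In 3 of 54 member and group combinations with 4 libraries, 1 library stood far from the other 3 by Dixon's criterion, where chance gives about 1 in 20. Gata6 was at 239 CPM in acute 72 h replicate 1, against a mean of 173 in the other 3. Tcf21 was at 1724 CPM in chronic 72 h replicate 4, against 1031 in the others. Mef2c was at 65.5 CPM in acute 7 d replicate 3, against 49.4.

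The step from 24 h to 72 h differed between chronic and acute injury by the interaction term for 3 members. On the log2 scale the difference was 0.93 for Gata6, 1.05 for Foxf1 and -2.09 for Mef2c.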

How the results depend on the processing

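Of 873 values of members recomputed under other settings, 805 kept direction and side of the threshold, 31 lost the threshold, 19 gained it and 18 changed sign. With a library left out the counts were 739, 57, 11 and 21 of 828. The causes of these changes were not tested.

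With a 2-fold minimum, genes called went from 6319 to 4118 at acute 24 h, 4104 to 2355 at acute 72 h, 4446 to 2790 at acute 7 d, 5818 to 3617 at chronic 24 h, 3748 to 2267 at chronic 72 h and 1615 to 1073 at chronic 14 d. For chronic 14 d against 24 h they went from 4323 to 2395, and for chronic against acute from 4000 to 2609 at 24 h and 2799 to 1711 at 72 h. Members called under it were 1 of 5 at acute 72 h, 1 of 6 at acute 7 d, 3 of 6 at chronic 72 h, 1 of 6 for chronic 14 d against 24 h and 2 of 5 for chronic against acute at 24 h. By library size alone 3 members were called at acute 72 h in place of 5, with Lhx2, Foxf1 and Ets1 lost and Gata6 gained. It also moved the higher share of genes called for chronic 14 d against 24 h from 43.8% to 61.3%. In chronic against acute at 72 h, 2 members in place of 1 were called at an adjusted p below 0.1, with DESeq2's size factors, library size alone, depth class or DESeq2.

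Fitting only the groups compared gave 2369 genes at chronic 72 h and 785 at chronic 14 d, where depth class gave 858 and an adjusted p below 0.1 gave 2535. Chronic against acute at 72 h gave 1785 genes with depth class and 1340 at higher depth alone. The difference in steps gave 1168 of 2034 genes at higher depth alone and 1353 with no filter.

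Leaving out 1 library gave 1 to 5 members at acute 72 h and 1 to 2 for chronic against acute at 72 h. It gave 1021 to 2533 genes at chronic 14 d (1021 without healthy replicate 2, 2533 without healthy replicate 4, 1035 and 1040 without chronic 14 d replicates 2 and 3). It gave 2604 to 3707 genes for chronic against acute at 24 h and 1297 to 2158 for the steps, both lowest without acute 24 h replicate 2.

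Signs that changed belonged to differences that passed no test. At higher depth alone they were -0.019 for Gata6 at chronic 24 h, 0.092 for Tcf21 in chronic against acute at 24 h, 0.12 for Gata4 at 72 h and 0.41 for Lhx2 in the steps. By library size alone they were 0.025 for Gata4 and 0.15 for Ets1 at chronic 14 d, 0.10 for Gata6 in chronic 14 d against 24 h, and 0.011 for Tcf21 in chronic against acute at 24 h. With depth class they were -0.0395 for Gata6 and 0.23 for Ets1 at chronic 14 d, 0.15 for Tcf21 in chronic against acute at 24 h and 0.0095 for Gata4 at 72 h. DESeq2's size factors and DESeq2 gave 0.0107 and 0.0107 for Ets1 at chronic 14 d and 0.0028 and 0.0029 for Tcf21 in chronic against acute at 24 h. With only the groups compared, Ets1 at chronic 14 d was 0.045 and Gata6 in chronic 14 d against 24 h 0.012. With 1 library left out, Gata6 ran from -0.00053 to 0.36 at chronic 24 h, -0.066 to 0.29 at chronic 14 d and -0.17 to 0.072 for chronic 14 d against 24 h. Tcf21 ran from -0.016 to 0.33 at chronic 72 h and -0.097 to 0.13 for chronic against acute at 24 h, Ets1 from -0.20 to 0.13 at chronic 14 d, and Gata4 from -0.17 to 0.049 for chronic against acute at 72 h. Lhx2 ran from -0.47 to 0.018 for chronic against acute at 24 h and -0.35 to 0.16 for the steps.

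Same-numbered libraries of different groups showed little likeness: in 78 such pairs r was -0.172 to 0.19, and 15 were over 0.1. These values do not cover likeness between libraries within a group. With the replicate as a block, 6381 genes were called at acute 24 h, and of the members' calls against healthy Hand2 at chronic 72 h was lost (adjusted p = 0.0645). Depth class and group cannot be told apart for chronic 14 d against healthy.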

Other observations

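Egr1, a zinc-finger immediate early gene on the list of relatives, was at 954 CPM in healthy replicate 4, 617 in acute 24 h replicate 3, and 939 and 959 in chronic 14 d replicates 2 and 3. In every other library it was between 3423 and 7731 CPM. Healthy replicate 4, which is part of all comparisons with healthy, also had the fewest genes detected of the 27 libraries, 18807.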
